A study of Mus musculus with 4 samples.

Results

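The Tie and VEGF receptors and their ligands were followed as 10 genes: Tek, Tie1, Kdr, Flt1, Flt4, Nrp1, Nrp2, Angpt1, Angpt2 and Vegfa. They were chosen by symbol, and all 10 were found among the 27998 genes of the deposited tables. All 10 had at least 1 UMI (unique molecular identifier, 1 counted RNA molecule) in the kept cells of E9.5 and of both P0 libraries, and 9 had one at E16.5, where Angpt2 had none.

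The libraries were droplet single-cell RNA sequencing of red fluorescent cells sorted from C57BL/6 mouse embryos and newborns that carried Tie2cre, a Cre recombinase under the Tek promoter, and a Rosa26 tdTomato reporter that Cre switches on. The reporter marks a cell and its descendants for good, so a sorted cell need not use the Tek promoter at the time of the sort. The 3 groups were atrioventricular canal of E9.5 embryos (1 library) and mitral valves of E16.5 embryos (1) and of P0 newborns (2), and each stage pooled at least 60 embryos per the labels. All groups carried the same alleles, and no group without Cre was analysed here. The E9.5 library held 1194 kept cells with a median of 24621 UMIs, E16.5 held 311 with 2357, and the P0 libraries held 282 and 173 with 5159.5 and 4432. The tables hold no row for the reporter, which leaves the sort without a check. The barcode lists of the P0 libraries, of 211 and 291 barcodes, shared 4. Clusters were built within each library with the 10 genes and 37 other pathway genes left out, and they were named from lists of marker genes. A name below stands for cells like that type.

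Endothelial cells carry both receptor systems. VEGF-A, encoded by Vegfa, binds the tyrosine kinase receptors VEGFR2 (Kdr), the main signalling receptor, and VEGFR1 (Flt1), which also acts as a trap for the ligand. VEGFR3 (Flt4) is known best from lymphatic endothelium, and the neuropilins Nrp1 and Nrp2 are co-receptors shared with the class 3 semaphorins. Angiopoietin 1 (Angpt1), usually made by cells next to the endothelium, activates the TIE2 receptor encoded by Tek, angiopoietin 2 (Angpt2) is a ligand that often opposes it, and Tie1 encodes a partner receptor with no well-settled ligand of its own.

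In GRCm38, Tek (ENSMUSG00000006386) lies at chr4:94739289-94874976 and Tie1 (ENSMUSG00000033191) at chr4:118471191-118490061, Kdr (ENSMUSG00000062960) at chr5:75932827-75978458 and Flt1 (ENSMUSG00000029648) at chr5:147561604-147726011. Flt4 (ENSMUSG00000020357) lies at chr11:49609263-49652739, Nrp1 (ENSMUSG00000025810) at chr8:128358604-128503363 and Nrp2 (ENSMUSG00000025969) at chr1:62703285-62818695. The ligand genes lie at chr15:42424723-42676977 (Angpt1, ENSMUSG00000022309), chr8:18690263-18741562 (Angpt2, ENSMUSG00000031465) and chr17:46016993-46032369 (Vegfa, ENSMUSG00000023951). Each is annotated as protein-coding.

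Because the Tek promoter drove the Cre, and because Kdr and Nrp2 were the members lower in surface than in capillary endothelium, the 250 bases before their RefSeq start sites are shown, with Tie1 for comparison (GRCm38.p6). Capitals mark GGAA or its reverse complement TTCC, the core read by ETS factors, a family known to act at endothelial promoters. The Tek window is chr4:94739039-94739288 on the plus strand. The Tie1 window is chr4:118489850-118490099 on the minus strand, the Kdr window chr5:75978456-75978705 on the minus strand and the Nrp2 window chr1:62703067-62703316 on the plus strand.
Tek: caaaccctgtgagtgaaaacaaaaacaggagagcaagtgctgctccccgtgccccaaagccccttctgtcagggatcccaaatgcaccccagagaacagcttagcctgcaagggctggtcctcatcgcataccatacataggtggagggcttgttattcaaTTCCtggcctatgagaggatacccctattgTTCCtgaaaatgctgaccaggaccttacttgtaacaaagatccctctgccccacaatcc
Tie1: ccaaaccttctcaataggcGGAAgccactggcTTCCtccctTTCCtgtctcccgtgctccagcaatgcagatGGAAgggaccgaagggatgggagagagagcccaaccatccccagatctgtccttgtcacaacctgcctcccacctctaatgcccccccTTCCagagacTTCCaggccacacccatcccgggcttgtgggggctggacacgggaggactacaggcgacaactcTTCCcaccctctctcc
Kdr: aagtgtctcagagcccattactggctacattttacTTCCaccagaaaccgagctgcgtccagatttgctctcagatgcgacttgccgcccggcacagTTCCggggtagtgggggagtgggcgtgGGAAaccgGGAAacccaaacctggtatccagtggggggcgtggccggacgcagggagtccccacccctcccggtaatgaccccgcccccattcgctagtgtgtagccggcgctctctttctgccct
Nrp2: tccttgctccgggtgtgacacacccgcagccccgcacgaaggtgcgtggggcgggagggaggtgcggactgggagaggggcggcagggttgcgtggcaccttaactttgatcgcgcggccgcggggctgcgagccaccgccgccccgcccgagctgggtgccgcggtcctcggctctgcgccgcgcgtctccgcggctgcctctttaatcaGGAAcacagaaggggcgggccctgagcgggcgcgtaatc
The Tie1 window held 7 matches on both strands, and 3.82% of the 32851 promoters of the same length held at least as many. Kdr held 4, as did Flt1 and Nrp1, and 33.4% of promoters held at least as many. The Vegfa window at chr17:46032378-46032627 held 6, with 8.69% of promoters holding at least as many, and that at chr17:46025164-46025413 held 2. Tek and Flt4 held 2 and Nrp2 held 1, while 76.8% of promoters held at least 2 and 93.4% at least 1. Of the 10 members, 8 had a promoter in the table, and a match is a string of letters, not a shown binding site.

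**Figure D1:**
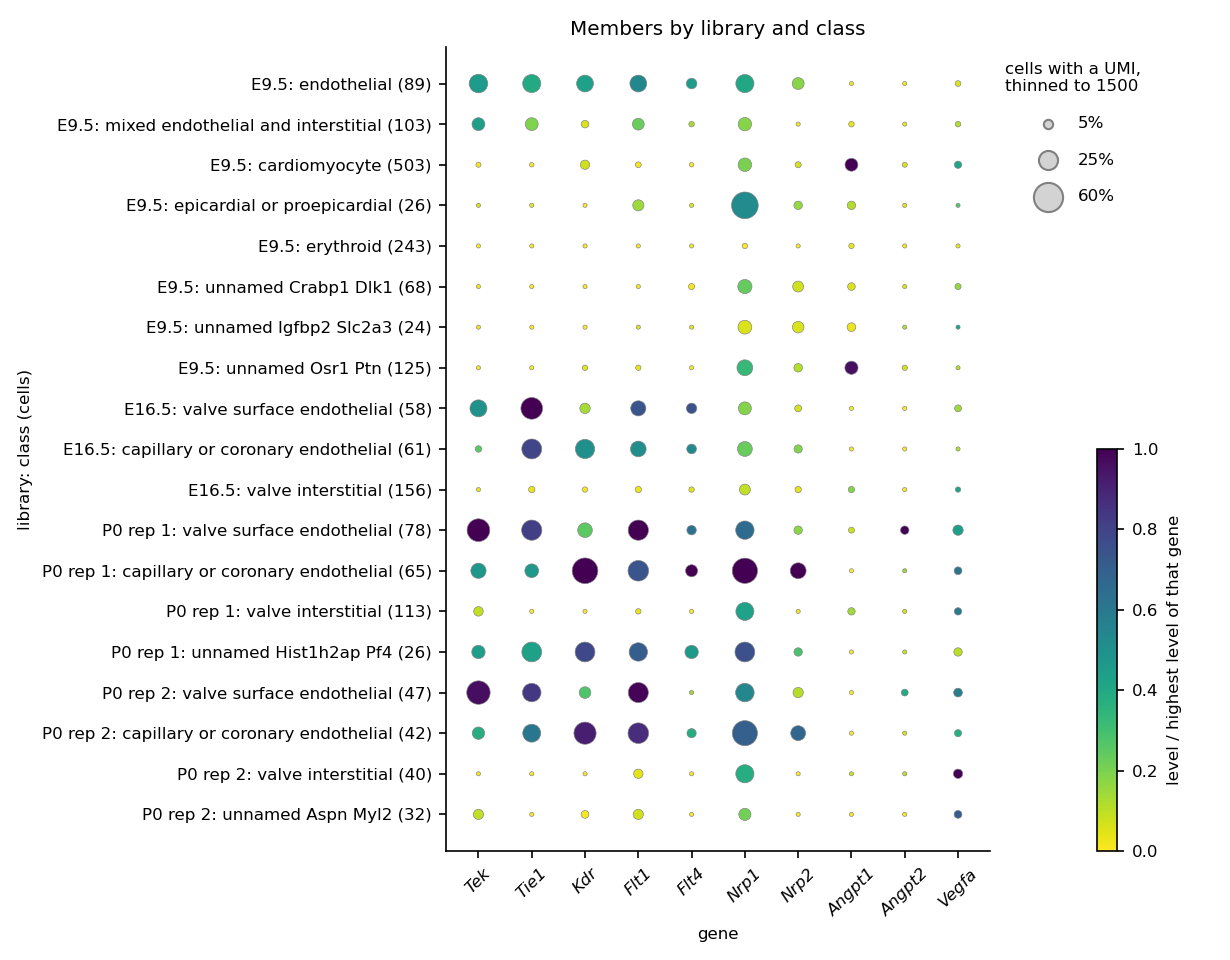
Each row is a library and class of at least 20 cells (number of cells in brackets) and each column a gene; dot size is the percentage of cells with a UMI after every cell was thinned to 1500 UMIs, and colour is the level in UMIs per 10000 divided by the highest level of that same gene. Tek, Tie1, Kdr and Flt1 are darkest in the endothelial rows, Angpt1 in the E9.5 cardiomyocyte and Osr1/Ptn rows, and Nrp1 is present in all rows but is faint in erythroid cells.

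Surface and capillary endothelium could be compared within 3 libraries. In all 3 later libraries the cells lining the valve and the cells of small vessels formed separate classes: 58 and 61 cells at E16.5, 78 and 65 in P0 replicate 1, and 47 and 42 in P0 replicate 2. Tek was higher in the surface class, while Kdr and Nrp2 were higher in the capillary class. Tie1, Flt1 and Nrp1 did not pass the test. Of the 10 members, 6 passed the filter on low counts, 1 was called higher and 2 lower in surface endothelium, against 16.1% of all 3469 genes called (8.1% higher and 7.99% lower). Nrp2, 1 of the 2 called lower, passed that filter only through the P0 capillary sums, where it was high. The counts above and the median below include it. The median log2 difference of the 6 was -0.06, beside -0.01 over all genes tested. A call needed a Benjamini-Hochberg adjusted p under 0.05 by edgeR's quasi-likelihood test on summed UMIs with the library as a block, and the same direction in all 3 libraries.

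Kdr was at 0.571 UMIs per 10000 UMIs in the surface class and 2.15 in the capillary class at E16.5. It was at 1.07 and 4.29 in P0 replicate 1, and at 1.19 and 3.94 in P0 replicate 2. The highest surface value lay below the lowest capillary value. The difference was -1.88 on the log2 scale (SE 0.23, adjusted p = 5.3e-06), lower in surface cells in 3 of 3 libraries. As a share of cells thinned to 1500 UMIs, Kdr was seen in 6.52% of surface cells at E16.5 (95% exact binomial interval 1.37 to 17.9%), in 14.1% in P0 replicate 1 (7.26 to 23.8%) and in 8.51% in P0 replicate 2 (2.37 to 20.4%). The capillary shares were 25.5% (14.7 to 39.0%), 46.2% (33.7 to 59.0%) and 34.1% (20.1 to 50.6%), each above the surface share of its library. Unthinned, Kdr was in 12.1, 41.0 and 23.4% of surface cells and in 34.4, 80.0 and 59.5% of capillary cells, at median depths of 2332.5 to 5271 and 2962 to 5029 UMIs. In interstitial cells of these libraries, which should lack the gene, 1.28% had a Kdr UMI at E16.5 and none of 113 and of 40 did at P0, which allows shares of cells with a UMI, not of cells expressing the gene, of up to 2.65% and 7.5%.

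Nrp2, the neuropilin best known from lymphatic and venous endothelium, stood at 0.127 (2 UMIs) in surface and 0.367 in capillary cells at E16.5. Its levels were 0.332 and 1.89 in P0 replicate 1, and 0.212 and 1.27 in P0 replicate 2. All surface values were below all capillary values, and the difference was -2.40 (log2, SE 0.36, adjusted p = 5.5e-05). The E16.5 ratio of surface to capillary was 0.346, with an interval of 0.0351 to 1.82. Nrp2 passed the filter (0.635 per 10000 in at least 1 sum) only through the P0 capillary sums, where it was high. Nrp2 overlaps the gene Gm29083 on the other strand, and the counting strand is not given in the sources used here.

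Tek ran the other way. Surface cells had 1.33 UMIs per 10000 at E16.5 against 0.681 in capillary cells, 2.68 against 1.25 in P0 replicate 1 and 2.59 against 1.01 in P0 replicate 2. Summed over each class, surface was higher in 3 of 3 libraries, though the E16.5 interval of the ratio reached down to 0.935. Clusters within the classes differed in Tek, as given below. The log2 difference was 1.16 (SE 0.24, adjusted p = 0.0018). DESeq2, which called 9.22% of all genes, gave 1.13 with an adjusted p of 0.0524, so that the call was lost.

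Tie1 was at 3.05 in surface and 2.41 in capillary cells at E16.5, 2.48 and 1.40 in P0 replicate 1, and 2.55 and 1.86 in P0 replicate 2. The difference of 0.54 (log2, SE 0.22, adjusted p = 0.10) did not pass in all 3 libraries, but it did without the E16.5 library (0.69, adjusted p = 0.0233) and among cells with at least 1000 genes (0.69, adjusted p = 0.0343). Flt1 had surface and capillary levels of 1.90 and 1.31, 2.58 and 1.91, and 2.55 and 2.25 in the same order of libraries. Its difference was 0.36 (log2, SE 0.21, adjusted p = 0.30). Nrp1 had levels of 0.889 and 1.10, 3.11 and 4.74, and 2.55 and 3.32, a difference of -0.47 (log2, SE 0.21, adjusted p = 0.15).

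The other members were too sparse for the filter. Flt4 ranged from 0.085 to 0.444 per 10000 in surface cells and from 0.228 to 0.595 in capillary cells, with 2 to 28 UMIs a sum, and the classes overlapped. Angpt2 had 28 surface and 4 capillary UMIs in P0 replicate 1 (0.547 and 0.085 per 10000), 5 and 1 in P0 replicate 2 (0.212 and 0.0326), and 0 in both classes at E16.5. In P0 replicate 1 the ratio was 6.43 (95% exact interval from counting 2.25 to 25.2), but only 11.5% of surface cells held those UMIs. Angpt2 lies within Mcph1 on the opposite strand. Vegfa had between 1 and 13 UMIs in each of these sums, and Angpt1 had 3 in all surface cells and 0 in all capillary cells.

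**Figure D2:**
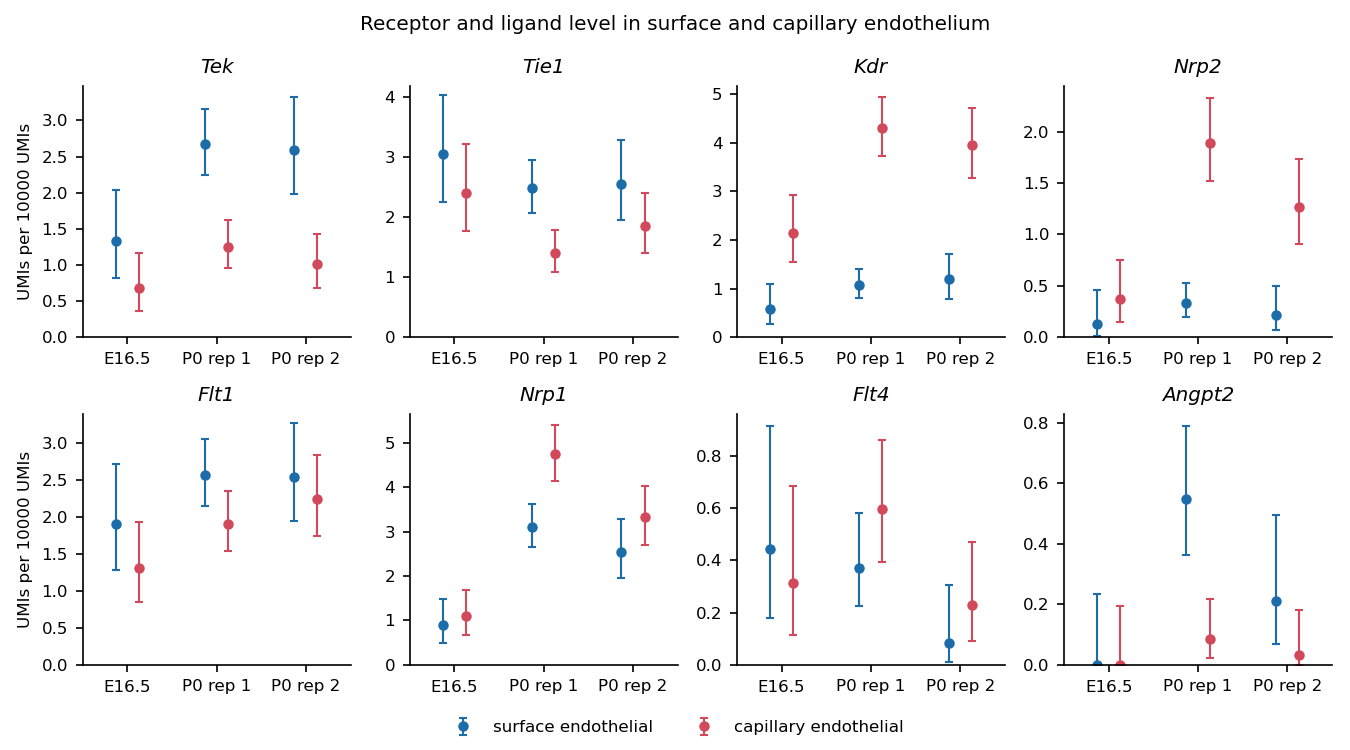
Level of 8 members (UMIs per 10000 UMIs of the class; separate vertical axes starting at 0) in surface (blue) and capillary (red) endothelial cells of each later library; points are sums over cells and bars 95% exact Poisson intervals, which cover counting error only. Kdr and Nrp2 have every red point above every blue one, and Tek has blue above red in each library.

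The surface class carried more interstitial RNA than the capillary class. Of 14 interstitial markers, 10 to 12 were detected in the surface sums at a summed 17.8 to 19.8 per 10000, with Prrx1 and Aspn at 0 in all 3, against 12 to 13 markers at 1.98 to 3.19 in the capillary sums. Smooth muscle or pericyte markers summed to 1.02 to 2.09 in surface and 1.41 to 7.50 in capillary cells. Their part in the differences was not tested. In P0 replicate 1 the surface class joined 2 clusters that differed in several members. The 46 cells led by Igfbp5 and Vwf had 3.53 Tek UMIs per 10000 (95% interval 2.89 to 4.28), and the 32 cells led by Ahsg and Enpp2 had 1.52 (1.04 to 2.13). Tie1 was at 3.30 in the first and 1.38 in the second, and Nrp1 at 4.11 and 1.75. Kdr (1.19 and 0.919) and Flt1 (2.41 and 2.80) had overlapping intervals. The Tek interval of the Ahsg and Enpp2 cells overlapped that of the capillary class there (0.955 to 1.62). In P0 replicate 2 the single surface cluster was led by Igfbp5, and at E16.5 by Plvap and Cytl1. The capillary class of P0 replicate 2 joined 2 clusters. Tek was at 0.814 (0.483 to 1.29) in 20 cells led by Hist1h2ap and Cldn5. In 22 cells led by Cd36 and Fabp4 it was at 1.51 (0.804 to 2.58), overlapping the surface interval (1.98 to 3.33).

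Tek and Kdr were also counted cell by cell. In P0 replicate 1, 52.3% of 65 capillary cells and 30.8% of 78 surface cells held both a Tek and a Kdr UMI. Cells with Tek but no Kdr were 37.2% of surface and 4.62% of capillary cells there. In P0 replicate 2 the Tek-only shares were 51.1% of 47 surface and 14.3% of 42 capillary cells, and at E16.5 they were 17.2% and 8.2%. These shares are unthinned.

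Whether the surface against capillary difference changed between E16.5 and P0 was tested as an interaction over the same 6 sums. None of the 6 members was called at an adjusted p under 0.05 by edgeR's quasi-likelihood test, and 0.0288% of all genes were. Without adjustment, 340 of the 3469 genes had p under 0.05, and DESeq2 called 0. The interaction was -0.25 for Kdr (log2, 95% interval -1.48 to 0.97, adjusted p = 0.94) and -0.46 for Tek (-1.59 to 0.67, adjusted p = 0.84).

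Of the 37 other pathway genes, 11 passed the filter in the surface against capillary test, with 1 called higher and 3 lower, a median log2 difference of 0.05 beside -0.01 over all genes. Foxo1, a transcription factor held in check by TIE2 signalling through AKT, was called higher in surface cells (adjusted p = 0.031), with 15, 43 and 21 surface UMIs against 0, 26 and 7 capillary UMIs. Aplnr, the apelin receptor, was lower (log2 -3.23, SE 0.35, adjusted p = 1.6e-06), at 0.127 to 0.215 per 10000 in surface and 1.20 to 2.27 in capillary cells. Its ligand gene Apln was called lower (adjusted p = 0.00013) with 1, 0 and 0 surface UMIs against 6, 39 and 32 capillary UMIs. Aplnr and Apln passed the filter only through capillary sums and Foxo1 only through surface sums, the class where each was high. Epas1, a hypoxia-inducible factor known to act on VEGF pathway genes, was also lower (log2 -1.0, SE 0.26, adjusted p = 0.011). Of the semaphorins and plexins, 2 of 10 passed the filter and none was called. None of the 5 other VEGF and angiopoietin ligands passed it.

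Stages were compared next, with a single library at E9.5 and at E16.5 that was assumed to vary like the P0 libraries. The labels do not tie the P0 libraries to different litters, and these p-values measure the spread between 2 samples that may be technical. Stage was also confounded with depth and, at E9.5, with the tissue dissected, and these cannot be told apart. In the E9.5 endothelial cluster (89 cells), set against P0 surface endothelium, Tek, Tie1, Flt1 and Nrp1 were lower and Kdr was not called. That was 4 of the 5 members that passed the filter, against 61.3% of 3620 genes called in either direction, 31.5% higher and 29.8% lower. The median of the 5 was -1.09 on the log2 scale, beside 0.02 over all genes.

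Tek was at 1.22 UMIs per 10000 at E9.5, at 1.33 in E16.5 surface cells and at 2.68 and 2.59 at P0. The P0 mean was 2.63 ± 0.0597 (SD, n = 2), and the difference between E9.5 and P0 was -1.30 (log2, SE 0.25, adjusted p = 1.7e-06). Tie1 had 1.20 at E9.5, 3.05 at E16.5 and P0 levels of 2.48 and 2.55, a difference of -1.25 between E9.5 and P0 (log2, SE 0.25, adjusted p = 3.8e-06). Flt1 had 1.37, 1.90, and P0 levels of 2.58 and 2.55, with -1.09 (log2, SE 0.25, adjusted p = 5.6e-05). For all 3 receptors E9.5 was the lowest of the 4 values, though for Tek and Flt1 its interval overlapped that of E16.5.

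Kdr had 1.87 at E9.5, 0.571 at E16.5 and P0 levels of 1.07 and 1.19. The excess at E9.5 over P0 was 0.56 (log2, SE 0.27, adjusted p = 0.064), and scaled by library totals instead of TMM it passed (0.74, adjusted p = 0.0121, with 62.9% of genes called). It also passed without the filter on low counts (0.86, adjusted p = 0.00907), with coarser clusters (0.62, adjusted p = 0.041) and with the pathway genes kept in the clustering (0.67, adjusted p = 0.0214). Nrp1 had 1.91 at E9.5, 0.889 at E16.5 and P0 levels of 3.11 and 2.55, and was lower at E9.5 (log2 -0.77, SE 0.24, adjusted p = 0.0031). DESeq2, which called 15.1% of genes, called none of these 4 lower genes, with adjusted p from 0.0707 for Tie1 to 0.391 for Nrp1. Library totals changed the split of called genes from 1141 higher and 1077 lower to 1367 and 909.

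Of the 37 other pathway genes, 10 passed the filter at E9.5 against P0, 2 were called higher and 6 lower (median -1.01, beside 0.02 over all genes). Aplnr (log2 2.03, adjusted p = 1.9e-05) and Gipc1 (0.77, adjusted p = 0.0088), an adaptor that binds the Nrp1 tail, were higher at E9.5. Ptprb, which encodes the endothelial phosphatase VE-PTP that acts on TIE2, was lower (-3.21, adjusted p = 2.6e-20). So were Epas1 (-3.48, adjusted p = 2e-09), Hif1a (-0.99, adjusted p = 0.0018), Nos3, the endothelial nitric oxide synthase (-1.39, adjusted p = 2.5e-05), Foxo1 (-1.02, adjusted p = 0.0035) and Sema3f (-3.18, adjusted p = 0.00018). The filter asked for 0.635 per 10000 in at least 1 sum. Sema3f passed it only through P0 replicate 2, Ptprb only through the P0 sums and Aplnr only through E9.5. The counts and median above include these genes.

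**Figure D3:**
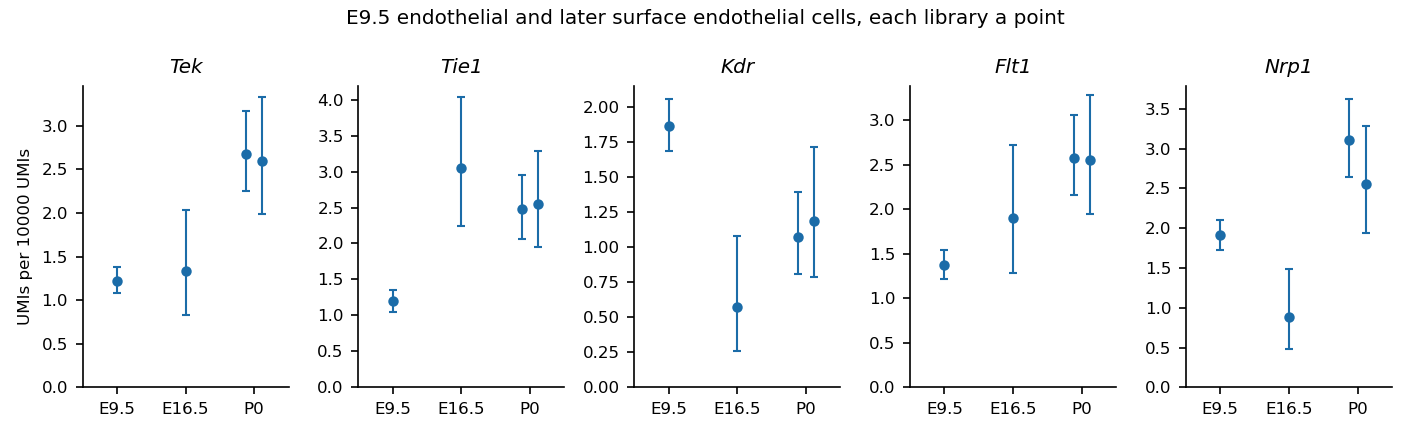
Level of 5 members (UMIs per 10000 UMIs, axes starting at 0) in the E9.5 endothelial cluster and in surface endothelium at E16.5 and P0; each point is a library and bars are 95% exact Poisson intervals. Tek, Tie1 and Flt1 have their lowest point at E9.5, and Kdr and Nrp1 have theirs at E16.5.

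Between E16.5 and P0, surface endothelium differed in 1 of the 5 members tested, against 28.4% of genes called, 15.7% higher and 12.7% lower. Nrp1 was lower at E16.5 (log2 -1.26, SE 0.42, adjusted p = 0.013), and DESeq2, which called 9.45% of genes, did not call it (adjusted p = 0.197). Tek (-0.55, SE 0.38, adjusted p = 0.29), Tie1 (0.72, SE 0.31, adjusted p = 0.072), Kdr (-0.53, SE 0.53, adjusted p = 0.48) and Flt1 (0.01, SE 0.35, adjusted p = 0.99) were not called. The median over all genes was -0.15, and library totals moved it to -0.59 and the calls from 569 higher and 460 lower to 366 and 850. Tek was then called lower at E16.5 (-0.99, adjusted p = 0.0313), with 33.6% of genes called. Of 10 pathway genes tested, Plxnd1, a semaphorin receptor subunit, was higher at E16.5 (1.17, adjusted p = 0.011). Ptprb and Hif1a were called lower (adjusted p = 0.0015 and 0.0026) on 3 UMIs each at E16.5, a level of 0.190 per 10000 against 1.47 and 1.61 for Ptprb, and 1.43 and 1.44 for Hif1a, at P0. Ptprb passed the filter only through the P0 sums.

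In capillary endothelium 7 members passed the filter and 1 was called between E16.5 and P0, against 26.3% of 3338 genes, 15.6% higher and 10.7% lower. Nrp2 and Flt4 passed the filter (0.524 per 10000 in at least 1 sum) only through P0 sums. Tie1 was higher at E16.5, at 2.41 per 10000 against 1.40 and 1.86 (log2 1.26, SE 0.30, adjusted p = 0.030). That call was lost with DESeq2 (adjusted p = 0.136, 11.4% of genes called), with library totals (0.58, adjusted p = 0.161), without the filter on low counts (adjusted p = 0.279) and among cells with at least 1000 genes (adjusted p = 0.0951). Nrp1 at 1.10 against 4.74 and 3.32 (-1.20, SE 0.38, adjusted p = 0.067) and Nrp2 at 0.367 against 1.89 and 1.27 (-1.44, SE 0.50, adjusted p = 0.079) lay below both P0 libraries without passing. With library totals both passed (-1.88 and -2.12, adjusted p = 0.0106 and 0.015), as did Kdr (-0.94, adjusted p = 0.0329), with 39.2% of genes called. That scaling moved the median of all genes from -0.21 to -0.88 and the calls from 520 higher and 358 lower to 292 and 1016. Nos3 (1.94, adjusted p = 0.015) and Gipc1 (1.12, adjusted p = 0.042) were the pathway genes called, both higher at E16.5, among 12 tested.

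Among interstitial cells, non-endothelial descendants of the lineage, Nrp1 was the one member that passed the filter (0.557 per 10000 in at least 1 sum). Nrp1 passed only through the P0 sums, where it was high. It was at 0.451 per 10000 at E16.5 (156 cells) with P0 levels of 2.0 and 1.78 (113 and 40 cells), a P0 mean of 1.89 ± 0.154 (SD, n = 2). Nrp1 was lower at E16.5 (log2 -1.54, SE 0.46, adjusted p = 0.0043), where 30.6% of 3184 genes were called, 18.3% higher and 12.3% lower. DESeq2, which called 9.39% of genes, did not call it (adjusted p = 0.243), nor did edgeR among cells with at least 1000 genes (-1.26, adjusted p = 0.0633). Library totals moved the median of all genes from -0.11 to -0.64 and the calls from 583 higher and 391 lower to 324 and 824. The E16.5 interstitial class was joined from clusters led by Col1a1, Mfap4 and Serpina3n, the P0 class mostly from clusters led by Mfap4, Dlk1 and Dbi. Vegfa in interstitial cells was at 0.186, 0.265 and 0.446 per 10000 on 7, 16 and 8 UMIs, with overlapping intervals. Of the 37 pathway genes, 4 were tested there and none was called.

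The E9.5 library held 2 clusters rich in endothelial RNA. One was endothelial (89 cells) and the other was mixed (103 cells), led by Hapln1 and Tagln2, with at least 4 endothelial and 4 interstitial markers raised. Being from 1 library, they were compared without a test, with 95% exact Poisson intervals. Tek had overlapping intervals, at 1.22 per 10000 (1.08 to 1.38) in the endothelial and 1.17 (1.04 to 1.32) in the mixed cluster, and was in 83.1% and 84.5% of their cells. Every other receptor had a lower level in the mixed cluster, with intervals that did not overlap. Kdr was at 1.87 (1.69 to 2.06) against 0.237 (0.178 to 0.309), a ratio of 7.88. Tie1 was at 1.20 against 0.593, Flt1 at 1.37 against 0.593, Flt4 at 0.266 against 0.0791 and Nrp1 at 1.91 against 0.852. Nrp2 was at 0.333 against 0.0307, on 70 and 7 UMIs. In the mixed cluster 57.3% of cells had Tek without Kdr and 27.2% had both, and in the endothelial cluster these shares were 12.4% and 70.8%. The 12 endothelial markers, which were used to name the clusters, summed to 42.1 per 10000 in the endothelial and 24.9 in the mixed cluster.

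Tek was then followed into sorted cells of other types. In the 503 E9.5 cardiomyocytes 29 Tek UMIs were counted, a level of 0.0247 per 10000 (0.0165 to 0.0355), and 27 cells, 5.37%, held one (3.57 to 7.71%). In the 243 erythroid cells, a class used here for background, 10 UMIs gave a level of 0.0126 (0.00603 to 0.0231) and 4.12% of cells (1.99 to 7.44%). The intervals overlapped, at median depths of 23313 and 32399 UMIs, so Tek over all cardiomyocytes could not be told from the erythroid level at this depth. Erythroid cells came from the same reporter sort, and whether they held Tek RNA of their own was not tested. With E9.5 cells thinned to 10000 UMIs, a depth chosen after seeing the data, the shares were 3.55% (2.04 to 5.70%) of 451 and 2.16% (0.703 to 4.96%) of 232 cells. None of the Tek-positive cardiomyocytes held a Tie1 UMI, a gene seen in 9 of all 503 cardiomyocytes, 1.79%. Of the Tek-positive cardiomyocytes, 25 held 1 Tek UMI and 2 held 2. Of the 27, 18.5% (6.30 to 38.1%) had UMIs of at least 2 of Pecam1, Cdh5, Emcn, Egfl7 and Esam, and of the 476 without Tek 17.9% (14.5 to 21.6%) did. Without the tenth of cardiomyocytes with the most UMIs, the Tek level was 0.0258.

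Markers of other cells were counted in these classes too. All 10 erythroid markers were detected in the cardiomyocyte, endothelial, mixed, Osr1/Ptn and Crabp1/Dlk1 classes, at a summed 62.1 to 84.5 per 10000, beside 182.2 in epicardial and 3846 in erythroid cells. In erythroid cells this share lowers the level per 10000 of every other gene, and levels were not corrected for it. The 12 endothelial markers were all detected in cardiomyocytes, at 0.878 per 10000, and in erythroid cells, at 0.657. The number of Tek UMIs for each Tie1 UMI was 1.02 (0.854 to 1.22) in endothelial cells, 1.00 (0.374 to 2.68) in erythroid cells and 3.22 (1.49 to 7.74) in cardiomyocytes. The mixed cluster also held more Tek than Tie1, at 267 and 135 UMIs, of 608 and 427 in the library. Of the 29 cardiomyocyte Tek UMIs, 16 fell in the cluster led by Pgam2 and Actn2, at 0.0421 per 10000 (0.0241 to 0.0684), the highest of the cardiomyocyte clusters. The Rspo3/Bmp2 cluster was close to it, at 0.0414 (0.0113 to 0.106) on 4 UMIs. The erythroid interval ended at 0.0231, just below that of the Pgam2/Actn2 cluster, and this narrow gap was not corrected for the erythroid marker RNA. The cluster led by Nppa and Stard10 held 4 of them, at 0.00841 (0.00229 to 0.0215). The part of RNA from other cells in these Tek UMIs was not tested.

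Epicardial or proepicardial cells (26) had 13 Tek UMIs in 10 cells, 0.157 per 10000 (0.0836 to 0.268), above the erythroid interval. Their median depth was 37249.5 UMIs. Thinned to 10000 UMIs, Tek was in 4% (0.101 to 20.4%) of 25 cells, overlapping the erythroid share of 2.16% (0.703 to 4.96%). Of the 10 epicardial cells with Tek unthinned, 60.0% had at least 2 of the 5 endothelial genes, and 12.5% of the other 16 did. Tie1 was at 0.0966 there, and no cell had a Kdr UMI, which allows up to 11.5% of cells with a UMI. Flt1 was in 69.2% of these cells (0.374 per 10000) and Nrp1 in all 26 (2.47 per 10000). The 12 endothelial markers summed to 1.55 per 10000 in this cluster, and their part in its Tek level was not tested.

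At P0, Tek UMIs were also counted in classes not named endothelial. In P0 replicate 1 the 26 unnamed cells led by Hist1h2ap and Pf4 had 26 Tek UMIs, 1.18 per 10000 and 34.6% of cells, with 12 of 12 endothelial markers at 49.7 per 10000 and 11 of 11 white blood cell markers at 22.6. In P0 replicate 1 the interstitial cluster led by Dlk1 and Aspn (39 cells) had 11 Tek UMIs in 9 cells, 0.498 per 10000 (0.249 to 0.891) and 23.1% of cells (11.1 to 39.3%). The interstitial cluster led by Mfap4 (59 cells) had 1, 0.0402 per 10000 (0.00102 to 0.224), and that led by Ube2c and Cenpa (15 cells) had 3, all in 1 cell. Tie1, Kdr and Emcn had 0 UMIs in the Dlk1 and Aspn cluster. In the surface endothelium of that library 1.08 Tek UMIs were counted for each Tie1 UMI, whereas in these cells, with no Tie1 UMI, the 95% lower bound of that ratio was 2.51. In P0 replicate 2 the class named interstitial (40 cells) had 1 Tek UMI, 0.0557 per 10000 (0.00141 to 0.310). A cluster of that library led by Aspn and Myl2 (32 cells, without a name) had 4 Tek UMIs in 9.38% of cells and no Tie1. Of the 12 endothelial markers, 9 were detected in each of the Dlk1/Aspn and Aspn/Myl2 clusters at 5.12 and 5.13 per 10000, with Emcn and Sox18 at 0 in both. All 10 cardiomyocyte markers in replicate 1 and 9 in replicate 2 were detected, at 15.7 and 18.4 per 10000, beside 14 of 14 interstitial markers at 163.7 and 144.3, and the part of these other cells in the Tek level was not tested. At E16.5 interstitial cells had 3 Tek UMIs in 156 cells. There 16 unnamed cells led by Pf4 and C1qb had 6 Tek UMIs in 31.3% of cells and 13 Tie1 UMIs in 56.3%, and 11 of the 12 endothelial markers (Emcn at 0), at 40.7 per 10000.

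**Figure D4:**
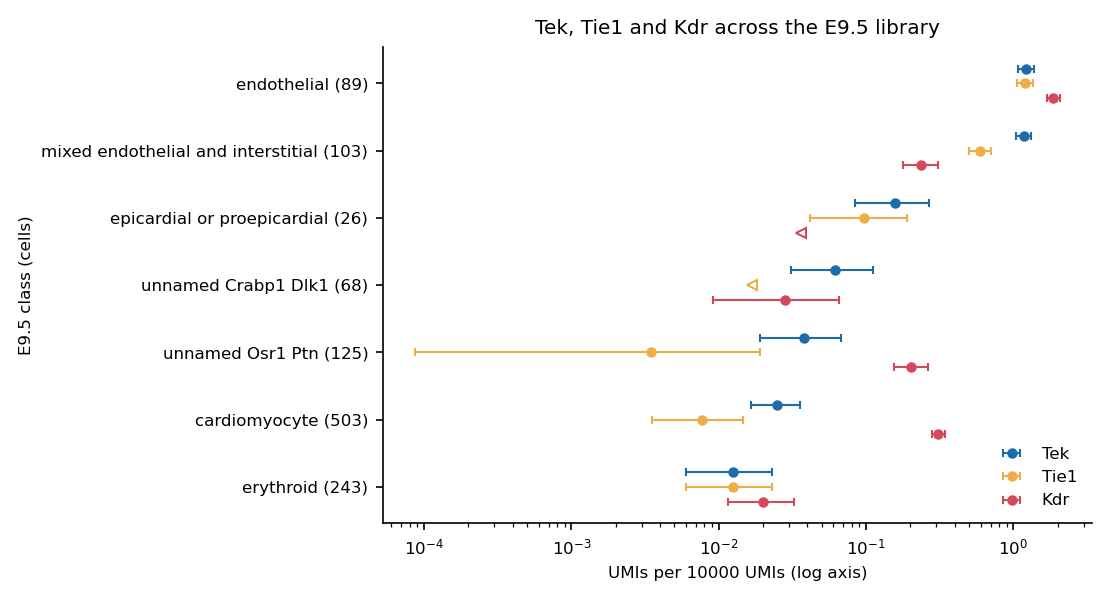
Level of Tek, Tie1 and Kdr (UMIs per 10000 UMIs, log axis) in classes of the E9.5 library, with cell numbers in brackets; bars are 95% exact Poisson intervals and open triangles mark classes with 0 UMIs at the level of 3 counts. Tek has overlapping intervals in the endothelial and mixed clusters and lies near the erythroid level in cardiomyocytes, where the Kdr point is 0.310.

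Kdr, Flt1, Nrp1, Nrp2, Angpt1, Angpt2 and Vegfa had levels in E9.5 cardiomyocytes whose intervals lay above those of erythroid cells. Erythroid levels are lowered by the erythroid marker RNA of that class and were not corrected for it. For Angpt2 the gap was narrow, with the erythroid interval ending at 0.0129 and the cardiomyocyte interval starting at 0.0193. Whether that gap would remain after such a correction was not tested. For Nrp2, 115 of the 141 cardiomyocyte UMIs lay in 17 cells of the Pgam2/Actn2 cluster. The Nrp2 level of the class was lower with coarser clusters, as given below. Kdr had 364 UMIs in cardiomyocytes, 0.310 per 10000 (0.279 to 0.343), against 0.0201 (0.0115 to 0.0327) in erythroid cells. It was in 39.4% of cardiomyocytes and 6.17% of erythroid cells, and after thinning to 10000 UMIs in 27.1% and 1.29%. Flt1 was at 0.0315 (0.0222 to 0.0434) in cardiomyocytes and 0.00503 (0.00137 to 0.0129) in erythroid cells, and 35.8% of them held Kdr without Flt1. For each Kdr UMI there were 0.0797 Tek UMIs in cardiomyocytes (0.0526 to 0.116), against 0.654 (0.557 to 0.767) in endothelial cells. Kdr is also a known marker of early mesoderm progenitors of heart and blood.

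Within cardiomyocytes Kdr and Angpt1 marked different clusters. Kdr was highest in the 55 cells led by Rspo3 and Bmp2, at 0.787 per 10000 (0.620 to 0.985) and in 67.3% of cells. It was at 0.437 in the Pgam2/Actn2 cluster and at 0.377 in the Wnt2/Actn2 cluster, whose intervals overlapped. In the Nppa/Stard10 cluster it was at 0.147 (0.115 to 0.186), and in the Myl2/Nppa cluster it was at 0.0676 (0.0272 to 0.139). Angpt1 was highest in the 194 Nppa/Stard10 cells, at 1.54 (1.43 to 1.66) and in 83.5% of cells. It was at 0.406 in Myl2/Nppa cells, 0.139 in Pgam2/Actn2 cells and 0.159 in Wnt2/Actn2 cells, and at 0.0207 (2 UMIs) in the Rspo3/Bmp2 cells. Nppa encodes a natriuretic peptide of chamber myocardium, and Bmp2 a ligand known from the myocardium of the atrioventricular canal. In single cells, Angpt1 and Kdr were both present in 12.5% of cardiomyocytes, Angpt1 alone in 33.4% and Kdr alone in 26.8%.

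Angpt1 over all cardiomyocytes was at 0.722 per 10000 (0.674 to 0.772) on 848 UMIs, in 45.9% of cells. In the 125 cells led by Osr1 and Ptn, without a name, it was at 0.692 (0.6 to 0.795). Erythroid cells stood at 0.0214 and endothelial cells at 0.00951, on 17 and 2 UMIs. Of 1101 Angpt1 UMIs in the library, these classes held 848 and 201, and of 608 Tek UMIs the endothelial and mixed clusters held 257 and 267. In the later libraries Angpt1 had 5 UMIs in E16.5 interstitial cells, 6 and 1 in P0 interstitial cells and 3 in P0 surface endothelium. Angpt1 overlaps Gm17473 on the other strand.

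Vegfa was at 0.182 per 10000 (0.159 to 0.208) in E9.5 cardiomyocytes, 0.0238 (0.00772 to 0.0555) in endothelial cells and 0.0113 (0.00517 to 0.0215) in erythroid cells, and 31.4%, 5.62% and 3.70% of these cells had a UMI. Among cardiomyocyte clusters it ran from 0.126 (0.0963 to 0.162) in Nppa/Stard10 cells to 0.338 (0.235 to 0.470) in Myl2/Nppa cells. Angpt2 had 33 UMIs in cardiomyocytes, 0.0281 (0.0193 to 0.0394), and 4 in erythroid cells, 0.00503 (0.00137 to 0.0129). Nrp1 was the member found most widely. It was at 0.951 in cardiomyocytes, 1.56 in Osr1/Ptn cells, 1.11 in Crabp1/Dlk1 cells, 1.91 in endothelial and 2.47 in epicardial cells, against 0.0264 in erythroid cells. Over the 5 cardiomyocyte clusters Nrp1 stayed between 0.778 and 1.14. Nrp2 in cardiomyocytes, 141 UMIs, came for the most part from the Pgam2/Actn2 cluster, where 115 UMIs lay in 11.0% of cells. With coarser clusters (resolution 0.6) the Nrp2 level of the cardiomyocyte class was 0.028 per 10000, against 0.12 here.

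**Figure D5:**
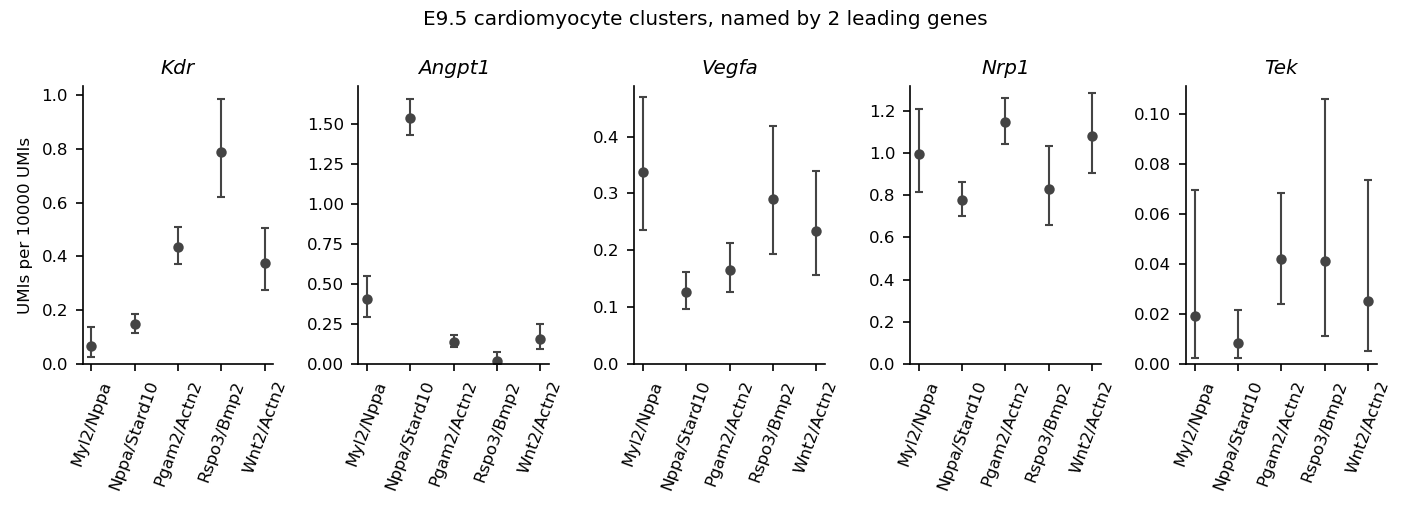
Level of 5 members (UMIs per 10000 UMIs, separate axes starting at 0) in the 5 E9.5 cardiomyocyte clusters, each named by its 2 leading genes; bars are 95% exact Poisson intervals of 1 library. Kdr is highest in the Rspo3/Bmp2 cluster and Angpt1 in the Nppa/Stard10 cluster, while Nrp1 varies little.

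The genes whose levels ran most like those of 3 members were listed over the 19 sums of a library and class with at least 20 cells, by Pearson's r of log2(UMIs per 10000 + 0.1) among 11919 genes. These sums share libraries and depth, and the values are a description across sums. For Tek they were Calcrl (r = 0.958), Flt1 (0.951), Adcy4 (0.942), Smagp (0.939) and Klhl4 (0.939). For Kdr they were Pde2a (0.949), Il2rg (0.949), Sox18 (0.947), Rasgrp3 (0.944) and Gimap4 (0.943). For Vegfa they were lower, from Aebp1 (0.844) and Cacna2d1 (0.844) to Triqk (0.827), Clstn1 (0.823) and Stx11 (0.815). The lists depended on the pseudocount: with 1 in place of 0.1, Emcn and Pecam1 stood in place of Adcy4 and Klhl4 for Tek, Arhgef15, Nrarp and Esam in place of Pde2a, Il2rg and Gimap4 for Kdr, and Bace1 in place of Clstn1 for Vegfa.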

How the data were processed

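UMI counts per gene and cell were deposited by the authors for 4 libraries, made with Cell Ranger 2.1.1 on mm10 per the submitters' processing notes. For the counting strand and the calling of cells, the setting is not given in the sources used here. Gene tables listed 27998 genes, and 15 symbols turned into dates in the table of P0 replicate 1 were matched by gene ID. The lengths of the P0 barcode lists (211 and 291) fitted the matrix of the other P0 library, so cells were taken by matrix column.

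Cells with at least 500 genes and at most 10% mitochondrial UMIs were kept, and doublets called by scrublet (from 1 to 6 per library) were removed. The E9.5 library kept 30533053 UMIs, the E16.5 library 845073 and the P0 libraries 1807069 and 972784. Clustering within each library used scanpy 1.11.5 (2000 variable genes, 20 principal components, 15 neighbours, Leiden resolution 1.0). The 10 members and 37 pathway genes were left out. Clusters were named from marker lists. A name needed at least 3 markers raised 2-fold and seen in 10% of cells, and no rival name above 0.75 of its share. These thresholds were set after the clusters had been seen, and the names may differ from the authors' own.

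UMIs were summed over library and class, and given per 10000 with exact Poisson 95% intervals. Shares of cells have exact binomial intervals, thinned to 1500 UMIs where stated and to 10000 at E9.5 as an alternative chosen after seeing the data. A count of 0 allows a level or share of up to 3 counts. Intervals and limits cover counting error only. Levels are 3' UMIs and are not compared between genes, except that ratios of Tek to Tie1 or Kdr UMIs are set side by side between classes.

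Differences were tested with edgeR 4.0.16 (R 4.3.3; quasi-likelihood, TMM scaling, Benjamini-Hochberg adjustment over all genes tested). A gene was tested if in at least 1 sum its CPM reached that of 10 counts in the smallest sum. A call needed an adjusted p under 0.05 and the same direction in all libraries. The SE given with an edgeR difference was worked back from that difference and its p-value, and is no separate measure of spread. The intervals of the interaction were built from that SE. Surface and capillary sums came from the same libraries and were paired through a library block, and the deviations of sums of a library correlated at 0.712, 0.560 and 0.461 over 3469 genes. Alternatives were DESeq2 1.42.0, library totals, no filter on low counts, resolution 0.6, members kept in the clustering, cells with at least 1000 genes, no block and leaving out each library. The scripts were tested on simulated data. Both the E9.5 and E16.5 surface comparisons used the same P0 libraries.

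The members and lists were chosen with earlier results of these data known. Named in the text are the 10 members, the called pathway genes and, for Tek, Kdr and Vegfa, the 5 genes most like each. Gene positions came from the GRCm38 annotation and promoters from RefSeq on GRCm38.p6.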

Additional observations from a re-analysis of the deposited data

How the results depend on the processing

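Of the member log2 differences under the alternatives, 203 kept their direction and side of the threshold, 15 lost a call, 18 gained one and 14 changed sign, and of the levels and shares 407 moved by less than their interval and 20 by more. For surface against capillary endothelium, 558 genes were called, 320 with DESeq2, and 355 to 801 when a library was left out. With no replicate block 86 were called, and the calls of Tek (adjusted p = 0.163) and Nrp2 (0.0596) were lost while that of Kdr (0.0344) was kept. The interaction with stage had 1 called gene, 0 with library totals, DESeq2 or cells with at least 1000 genes, 4 with no filter and 2 at resolution 0.6. DESeq2 called 342 genes in E16.5 surface, 545 in E9.5 endothelium, 379 in capillary and 299 in interstitial cells. With no filter 3850 were called at E9.5, and 0 in capillary cells, where edgeR gave 1950 with an unadjusted p under 0.05. Why these counts moved was not tested. The values that changed sign lay between -0.07 and 0.22 in the report's fit. The interaction of Flt1 was 0.22 and that of Nrp1 0.20 with library totals, and Nrp1 was 0.0387 at resolution 0.6, 0.10 with pathway genes kept in the clustering and 0.72 with at least 1000 genes. The E16.5 surface difference of Flt1 was -0.43 with library totals, -0.18 with no filter, -0.26 at resolution 0.6, -0.22 with pathway genes kept and -0.49 with at least 1000 genes. In capillary cells Tek was 0.0407 with at least 1000 genes, Flt1 was -0.66 with library totals and -0.15 with no filter, and Flt4 was -0.45 with library totals. Unthinned P0 shares with Kdr were 41.0 and 23.4% in surface and 80.0 and 59.5% in capillary cells. No paired analysis was possible for the stages because no library number joins samples of different stages, and leaving out a P0 library there left no residual degree of freedom, so no test was made. Angpt1, Angpt2 and Vegfa did not pass the filter on low counts in any comparison, and Flt4 passed it only in capillary cells.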
